A study of Bos taurus with 24 samples.

Results

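The genes described here make cholesterol or control its making: SREBF2, INSIG1, HMGCS1, IDI1, FDPS, FDFT1, SQLE and LSS. They were chosen by name from the platform annotation, with earlier results of these data known, taking the brightest array feature of each gene. Of these 8 genes, 7 had a feature assigned to them alone, among 18444 genes with such a feature, and all 7 were among the 14198 genes bright enough to be tested. The 1 feature of FDPS, farnesyl diphosphate synthase, is also assigned to RUSC1, so no value is attributed to FDPS.

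Muscle RNA came from the gluteus medius, a hindquarter muscle, of 12 crossbred beef cows, and each cow was biopsied 2 times, giving 24 Affymetrix arrays. The cows were the extremes of gain in a trial of 121 animals: 6 formed the high gain class and 6 the low gain class, by weight gained on free feed. All of them first lived through 112 days on a restricted diet, set at 120 kcal ME (metabolizable energy) per kg of metabolic body weight, with a muscle sample at day 105. A further 112 days of feed offered freely followed, with a sample at day 49. Crossing gain class with biopsy number gives 4 groups of 6 arrays. The labels number the biopsies without naming the feeding period, and biopsy 1 is read here as the restricted period and biopsy 2 as the free one, in the order of the protocol. Because every cow passed through the periods in the same order, feeding, time and age cannot be told apart. The labels give no age, and cows are numbered 1 to 6 within each class only as names. The study asked which muscle transcripts go with body weight gain.

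Cholesterol is built from acetyl-CoA through mevalonate, isoprenoid diphosphates, squalene and lanosterol. SREBP2, the product of SREBF2, is a membrane-bound transcription factor that is held in the endoplasmic reticulum by INSIG proteins when sterols are plentiful and is carried by SCAP to the Golgi, cut free and sent to the nucleus when they are scarce. Its targets include most enzymes of the pathway, INSIG1 and its own gene.

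Values are log2 intensities, so a difference of 1 is a doubling, and levels of different genes cannot be compared on this scale. The deposited values of the biopsies appeared to have been normalized as separate sets, their highest values being 19.8071 at biopsy 1 and 19.9315 at biopsy 2, so biopsy number and processing set cannot be told apart in any change below. All 24 arrays were therefore quantile normalized together for the changes between biopsies. A gene was called where limma's p, adjusted by Benjamini-Hochberg over all tested genes, was under 0.05. Precision is limited by having 6 arrays in a group.

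Arrays of cow 4 in each class stood apart by tissue markers. The mean of 9 muscle fibre markers was 15.4 on the biopsy 1 array of low gain cow 4, whose group had a median of 19.5, while its ADIPOQ level was 18.11 against a group median of 12.12. ADIPOQ encodes adiponectin, a hormone made by fat cells. On the biopsy 2 array of high gain cow 4 ADIPOQ was 18.37 against a group median of 10.46, and the mean of 11 adipocyte markers was 15.1 against a group median of 10.1. Results that rest on either cow are given with and without it.

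Between the biopsies 5 of the 7 genes rose over all 12 cows, and none fell. INSIG1, IDI1 and FDFT1 rose by over 1 on the log2 scale, HMGCS1 and SREBF2 by over 0.5, and LSS and SQLE did not pass the test. Among all tested genes 38.1% were called, 20.8% as higher and 17.4% as lower, so a rise of a single gene was common. The median change was 0.58 over the 7 genes and 0.02 over the 14198 genes. Because the genes were chosen with earlier results of these data known, these comparisons are descriptions. In bulk muscle, fewer cells of a type and less RNA per cell cannot be told apart.

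**Figure D1:**
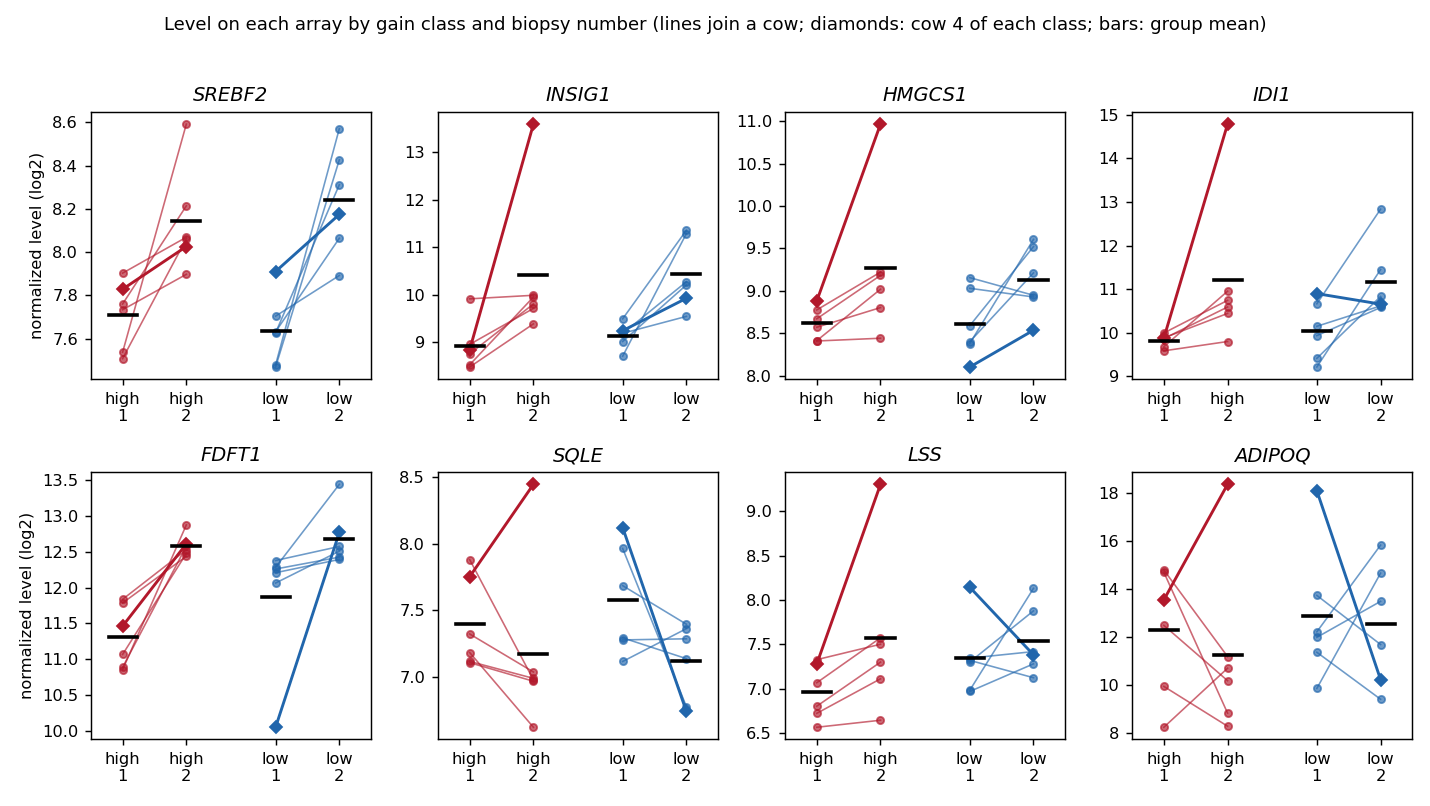
Normalized log2 level (vertical axis) of each sterol gene and of ADIPOQ on each of the 24 arrays, by gain class and biopsy number (horizontal axis). Each point is an array, lines join the arrays of a cow, diamonds mark cow 4 of each class and black bars are group means. FDFT1 reads above 12.38 on all biopsy 2 arrays and no higher than 12.38 on all biopsy 1 arrays, while high gain cow 4 at biopsy 2 is the highest array for INSIG1, HMGCS1, IDI1, SQLE and LSS.

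The regulators come first. SREBF2 (array feature 12858405, Entrez gene 507102) read 7.51 to 7.90 in high gain cows at biopsy 1, with a median of 7.75, and 7.90 to 8.59 at biopsy 2, with a median of 8.07. Its low gain levels were 7.47 to 7.91 at biopsy 1, with a median of 7.63, and 7.89 to 8.57 at biopsy 2, with a median of 8.24. Of the 12 biopsy 2 arrays 10 lay above every biopsy 1 array, a count that was not made for all tested genes. SREBF2 was higher at biopsy 2 in 12 of 12 cows, by 0.16 in high gain cow 2 up to 1.09 in low gain cow 5. The rise was 0.52 ± 0.10 (SE, n = 12 cows, limma's adjusted p = 0.00157). Low gain cow 4 had the highest of the biopsy 1 levels, 7.91, and the rise was 0.57 ± 0.11 without both cows numbered 4.

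INSIG1 (feature 12850024, Entrez gene 511899) encodes the protein that retains the SCAP and SREBP complex and is itself a sensitive SREBP target. High gain cows ranged from 8.48 to 9.92 at biopsy 1, with a median of 8.80, and from 9.39 to 13.59 at biopsy 2, with a median of 9.88. Low gain cows ranged from 8.71 to 9.50 at biopsy 1, with a median of 9.19, and from 9.55 to 11.36 at biopsy 2, with a median of 10.24. All biopsy 2 arrays of low gain cows lay above all their biopsy 1 arrays. In high gain cows, cow 2 at biopsy 1, at 9.92, overlapped the biopsy 2 range. Separation within 1 class was not counted over all tested genes. All 12 cows were higher at biopsy 2, from 0.07 in high gain cow 2 to 4.75 in high gain cow 4. The rise of 1.39 ± 0.33 (SE, n = 12 cows, limma's adjusted p = 0.00510) ranked 106 among the 14198 genes by size of increase. Without high gain cow 4 it was 1.07 (limma's adjusted p = 0.00113).

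The mevalonate steps held another pair of genes that rose. HMGCS1 (feature 12785196, Entrez gene 407767) makes HMG-CoA, an early intermediate of the pathway. It read 8.41 to 8.88 in high gain cows at biopsy 1, with a median of 8.62, and 8.44 to 10.97 at biopsy 2, with a median of 9.10. Low gain levels ran from 8.10 to 9.16 at biopsy 1, with a median of 8.50, and 8.54 to 9.61 at biopsy 2, with a median of 9.08. The ranges overlapped in both classes, and low gain cows 1 and 5 went the other way, by -0.10 and -0.21. HMGCS1 was higher at biopsy 2 in the other 10 cows and rose by 0.58 ± 0.17 over all cows (SE, n = 12, limma's adjusted p = 0.0177). Without high gain cow 4, whose change was 2.09, the rise was 0.44 (limma's adjusted p = 0.0208).

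IDI1 (feature 12715074, Entrez gene 514293) interconverts the 5-carbon isoprenoid units. Its high gain range was 9.59 to 9.99 at biopsy 1, with a median of 9.87, and 9.80 to 14.79 at biopsy 2, with a median of 10.67. Its low gain range was 9.21 to 10.90 at biopsy 1, with a median of 10.04, and 10.58 to 12.84 at biopsy 2, with a median of 10.74. In high gain cows 5 of 6 biopsy 2 arrays lay above every biopsy 1 array, and in low gain cows 2 of 6 did. Such counts were not made for all tested genes. IDI1 was higher at biopsy 2 in 11 of 12 cows, the exception being low gain cow 4 at -0.24, which was higher too on the values as deposited. The rise was 1.26 ± 0.36 (SE, n = 12 cows, limma's adjusted p = 0.0146), and 0.91 (limma's adjusted p = 0.00605) without high gain cow 4, whose change was 4.91.

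At the squalene steps the genes diverged. FDFT1 (feature 12892713, Entrez gene 281767), squalene synthase, commits farnesyl diphosphate to sterols. High gain arrays read 10.86 to 11.84 at biopsy 1, with a median of 11.27, and 12.43 to 12.87 at biopsy 2, with a median of 12.55. Low gain arrays read 10.06 to 12.38 at biopsy 1, with a median of 12.23, and 12.39 to 13.44 at biopsy 2, with a median of 12.54. Every biopsy 2 array lay above every biopsy 1 array, although the margin in low gain cows was narrow. Of all tested genes 1.63% separated the biopsies upward in this way and 1.34% downward. FDFT1 was higher in 12 of 12 cows, as were SREBF2 and INSIG1 and 6.83% of all tested genes, while 5.56% were lower in all cows. Its rise was 1.04 ± 0.22 (SE, n = 12 cows, limma's adjusted p = 0.00269). It was 0.85 (limma's adjusted p = 0.000822) without low gain cow 4, which had the lowest biopsy 1 level, 10.06, and the largest change, 2.71.

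SQLE (feature 12725522, Entrez gene 526535), squalene epoxidase, was the exception in sign. High gain cows read 7.11 to 7.88 at biopsy 1, with a median of 7.25, and 6.62 to 8.44 at biopsy 2, with a median of 6.99. Low gain cows read 7.12 to 8.12 at biopsy 1, with a median of 7.49, and 6.74 to 7.40 at biopsy 2, with a median of 7.21. The ranges overlapped in both classes, and 9 of 12 cows were lower at biopsy 2. The change was -0.34 ± 0.16 (SE, n = 12 cows), which missed the threshold (limma's adjusted p = 0.102). The call depended on the 2 cows numbered 4, which moved in opposite directions, by 0.69 in the high gain class and by -1.38 in the low gain class. Without the high gain cow 4 the change was -0.43 and passed (limma's adjusted p = 0.0351), and without both it was -0.34 and passed (limma's adjusted p = 0.0473). Without low gain cow 4 alone it was -0.25 (limma's adjusted p = 0.188).

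LSS (feature 12686938, Entrez gene 615906), lanosterol synthase, closes the sterol rings. High gain cows read 6.57 to 7.33 at biopsy 1, with a median of 6.94, and 6.65 to 9.31 at biopsy 2, with a median of 7.40. Low gain cows read 6.97 to 8.15 at biopsy 1, with a median of 7.31, and 7.13 to 8.13 at biopsy 2, with a median of 7.40. LSS was higher at biopsy 2 in 10 of 12 cows, with overlapping ranges. Its change of 0.40 ± 0.18 (SE, n = 12 cows) missed the threshold (limma's adjusted p = 0.0870). The cows numbered 4 again stood at both ends, 2.03 in the high gain class and -0.76 in the low gain class. The change passed without low gain cow 4 (0.50, limma's adjusted p = 0.0308) and without both cows (0.35, limma's adjusted p = 0.0229), but was 0.26 (limma's adjusted p = 0.154) without high gain cow 4 alone. Without both cows, 6 of the 7 genes were called higher and SQLE was called lower, and 42.5% of all tested genes were called.

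Within the gain classes, fewer changes passed. In high gain cows 3 of the 7 genes were called, all higher, where 20.3% of tested genes were called, 11.5% as higher and 8.73% as lower. FDFT1 rose by 1.26 ± 0.31, INSIG1 by 1.49 ± 0.47 and SREBF2 by 0.43 ± 0.14 (SE, n = 6 cows, limma's adjusted p = 0.0135, 0.0383 and 0.0487). These calls were close to the threshold: without high gain cow 1 none of the 7 genes was called in this class. Without high gain cow 4 only FDFT1 was, at 1.29, and INSIG1 was at 0.84 (limma's adjusted p = 0.0570). IDI1 was then at 0.71 in place of 1.41, HMGCS1 at 0.37 in place of 0.65 and LSS at 0.33 in place of 0.61. Shares of all tested genes called without a single cow are not given here, so these counts are not read as results about the 7 genes. SREBF2 alone of the 7 was called in low gain cows, at 0.60 ± 0.14 (SE, n = 6 cows, limma's adjusted p = 0.0109), where 20.3% of tested genes were called, 10.8% as higher and 9.46% as lower. INSIG1 was 1.29 ± 0.47 there (limma's adjusted p = 0.0664), and passed at the same size without high gain cow 4 (limma's adjusted p = 0.00496), since both classes share the estimate of spread. IDI1 in low gain cows likewise passed without that cow (1.12, limma's adjusted p = 0.0188) and not with it (limma's adjusted p = 0.141).

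The classes were not shown to differ in their change. The difference of the changes, high minus low gain, was called for none of the 7 genes and for 0% of the 14198 genes by limma. It had an unadjusted p under 0.05 for 512 genes, fewer than the 1 in 20 expected by chance. For FDFT1 it was 0.46 ± 0.44 and for LSS 0.42 ± 0.35 (SE, n = 6 cows per class). Both depended on the cows numbered 4: without low gain cow 4 FDFT1 was at 0.84 and LSS at 0.23, and without high gain cow 4 LSS was at 0.14. Without both cows FDFT1 was at 0.86 ± 0.31, with an unadjusted p of 0.0173 and an adjusted p of 0.478 by limma. The intervals were wide, from -1.27 to 1.85 for IDI1 and from -1.22 to 1.62 for INSIG1, so for these 2 genes the intervals held differences of more than a doubling either way. For SREBF2 the 95% interval ran from -0.61 to 0.27.

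Gain class was also compared within each biopsy, on the values as deposited. No gene was called at either biopsy or on the mean of both, 0% of 14198 in each comparison, by limma. At an unadjusted p under 0.05 there were 716 genes at biopsy 1, 334 at biopsy 2 and 526 over both. The first count is near the 1 in 20 genes expected by chance and the others are below it. At biopsy 1 the high minus low difference ran from -0.48 ± 0.38 for FDFT1 and -0.44 ± 0.21 for LSS to 0.03 ± 0.12 for SREBF2 (SE, 6 against 6 cows). At biopsy 2 the 7 differences lay between -0.12 and 0.15. This range rested on high gain cow 4: without it INSIG1 was at -0.67, IDI1 at -0.66 and LSS at -0.32, and none was called.

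FDFT1 at biopsy 1 turned on 1 array. Its 6 high gain arrays lay below 5 of the 6 low gain arrays, and low gain cow 4 lay below all of them. Without that cow the difference was -0.85 ± 0.21 (SE, 6 against 5 cows), with an adjusted p of 0.651 by limma, so it was not called either. That array is the one with low muscle marker levels, and the part of tissue composition in its FDFT1 level was not tested. At biopsy 2 FDFT1 differed by -0.10 ± 0.19 between the classes.

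Since levels of fat cell markers varied between biopsies, each change was refitted with the ADIPOQ level of the array as a covariate. ADIPOQ itself changed by -0.68 ± 1.08 (SE, n = 12 cows), was not called, and was higher at biopsy 2 in 5 of 12 cows, from -7.87 in low gain cow 4 to 4.81 in high gain cow 4. PLIN1, the lipid droplet coat protein of fat cells, changed by -0.34 ± 0.90 and the fatty acid binding protein gene FABP4 by -1.10 ± 1.27, and neither was called. Of the 11 adipocyte markers 1 was called higher, AQP7, at 1.97 ± 0.39. The muscle creatine kinase gene CKM lay at or near its upper limit of 19.87 on all arrays but those of the cows numbered 4 that stood apart, so its level could not show a change in muscle content. None of the 9 muscle markers was called, but their mean had a group median of about 19.5, close to that limit.

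Markers of some other cells were called between the biopsies, where 20.8% of all tested genes were called higher and 17.4% lower. None of 6 fibroblast, 4 endothelium, 2 smooth muscle and pericyte and 2 red blood cell markers was called. Of 5 macrophage and leukocyte markers 3 were called lower, PTPRC at -0.92 ± 0.28, CD163 at -0.37 ± 0.09 and AIF1 at -0.35 ± 0.10, and CSF1R was called higher at 0.34 ± 0.12 (SE, n = 12 cows, by limma). The mean of the 5 ranged from 7.50 to 8.51 in low gain cows at biopsy 1 and from 7.30 to 7.84 at biopsy 2, and from 7.75 to 8.35 and from 7.35 to 8.02 in high gain cows. The 1 tested Schwann cell marker, S100B, was called higher at 0.97 ± 0.22. Their part in the sterol gene changes was not tested.

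After the adjustment the rise stayed in all 5 genes and LSS joined them. INSIG1 rose by 1.53 ± 0.25, IDI1 by 1.43 ± 0.24 and FDFT1 by 0.96 ± 0.18 (SE, n = 12 cows, limma's adjusted p = 0.000281, 0.000355 and 0.000904). HMGCS1 rose by 0.65 ± 0.14, SREBF2 by 0.51 ± 0.10 and LSS by 0.49 ± 0.12 (SE, n = 12 cows, limma's adjusted p = 0.00162, 0.00135 and 0.00456). SQLE stayed at -0.29 ± 0.13 (limma's adjusted p = 0.0933). Among all tested genes 44.6% were called after the adjustment and 24.3% were called higher. Of the 10 other adipocyte markers 5 were called higher in this fit and 0 lower, with a median change of 0.45. Before the adjustment 1 of the 11 adipocyte markers was called. Whether the fit removed all differences in fat content was not tested. The standard error of IDI1 fell from 0.36 to 0.24 and that of LSS from 0.18 to 0.12, while that of SREBF2 was 0.10 both times.

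Other fat measures in the fit left the same 6 genes called. With PLIN1 in place of ADIPOQ, INSIG1 rose by 1.49, IDI1 by 1.37 and LSS by 0.46. With the mean of the 11 adipocyte markers these were 1.29, 1.14 and 0.34, all still called, and SQLE was called too, at -0.38 (limma's adjusted p = 0.0215). Without both cows numbered 4 and with ADIPOQ in the fit, the rises were 1.20 ± 0.17 for INSIG1, 1.12 ± 0.16 for IDI1 and 0.38 ± 0.11 for LSS. In the ADIPOQ fit over all cows 4 of 6 fibroblast markers were called higher, COL1A1 at 1.01 ± 0.22 among them. Of all tested genes 24.3% were called higher in that fit. Before the adjustment none of these fibroblast markers was called. Whether connective tissue content changed was not tested, nor was the part of these markers in the sterol gene changes.

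**Figure D2:**
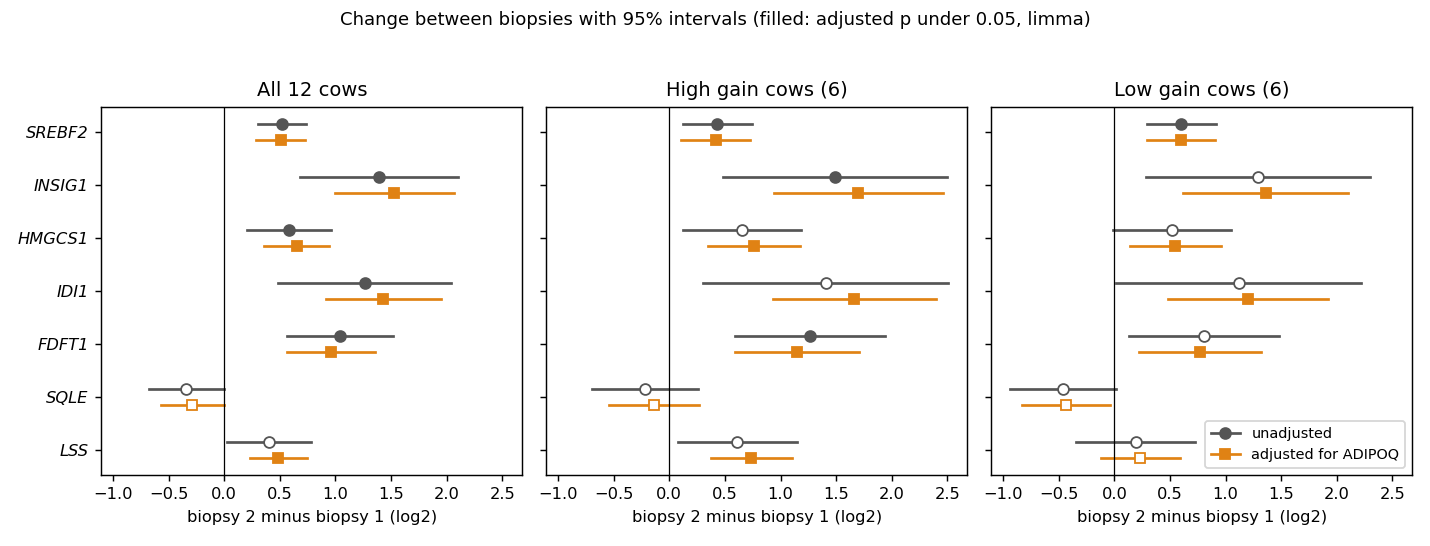
Change between biopsies (horizontal axis, log2, biopsy 2 minus biopsy 1) of the 7 sterol genes in all 12 cows, the 6 high gain cows and the 6 low gain cows. Grey circles are unadjusted changes and orange squares are adjusted for ADIPOQ, bars are 95% intervals, and filled symbols passed limma's adjusted p of 0.05. In all cows 5 genes passed before the adjustment and 6 after it, and the estimate of each gene stayed on its side of 0.

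By class, the adjusted fit called 6 of the 7 genes in high gain cows, all but SQLE, where 26.8% of tested genes were called and 15.3% were called higher. LSS rose by 0.74 ± 0.17 there and IDI1 by 1.66 ± 0.34 (SE, n = 6 cows, limma's adjusted p = 0.00629 and 0.00353). Without high gain cow 4 these were 0.52 and 1.04, and 4 of the 7 were called, SREBF2 and HMGCS1 no longer. Without both cows numbered 4 the count was also 4, with LSS at 0.45 (limma's adjusted p = 0.0879) and SREBF2 at 0.36 (limma's adjusted p = 0.153) no longer called. The share of all tested genes called in high gain cows was then 18.1%, in place of 26.8%. In low gain cows 5 of the 7 were called, all higher, where 29.1% of tested genes were called and 15.9% were called higher. LSS at 0.23 ± 0.17 and SQLE at -0.43 ± 0.18 were not. The low gain calls moved with cow 4 of that class: without it only SREBF2 was called, and the FDFT1 estimate was 0.47 in place of 0.77. Shares of all tested genes called without a single cow are not given here. The counts without 1 cow are therefore not read as results about the 7 genes.

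Within cows, 4 of the 7 genes also followed ADIPOQ in the same fit, where 24.5% of tested genes did so and 11.8% did so in a positive direction. The slope, in log2 units of the gene per log2 unit of ADIPOQ, was 0.25 ± 0.06 for IDI1, 0.20 ± 0.06 for INSIG1, 0.12 ± 0.03 for LSS and 0.10 ± 0.03 for HMGCS1 (SE, n = 12 cows, limma's adjusted p = 0.00836, 0.0300, 0.00875 and 0.0414). SQLE at 0.08 ± 0.03, FDFT1 at -0.11 ± 0.05 and SREBF2 at -0.01 ± 0.03 were not called. These slopes rested on few cows. Without both cows numbered 4 none of the 7 was called by limma, 2 had an unadjusted p under 0.05, and 1.62% of all tested genes were called. IDI1 then had a slope of 0.13 ± 0.05, INSIG1 of 0.12 ± 0.06, HMGCS1 of 0.11 ± 0.04 and LSS of 0.056 ± 0.038.

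**Figure D3:**
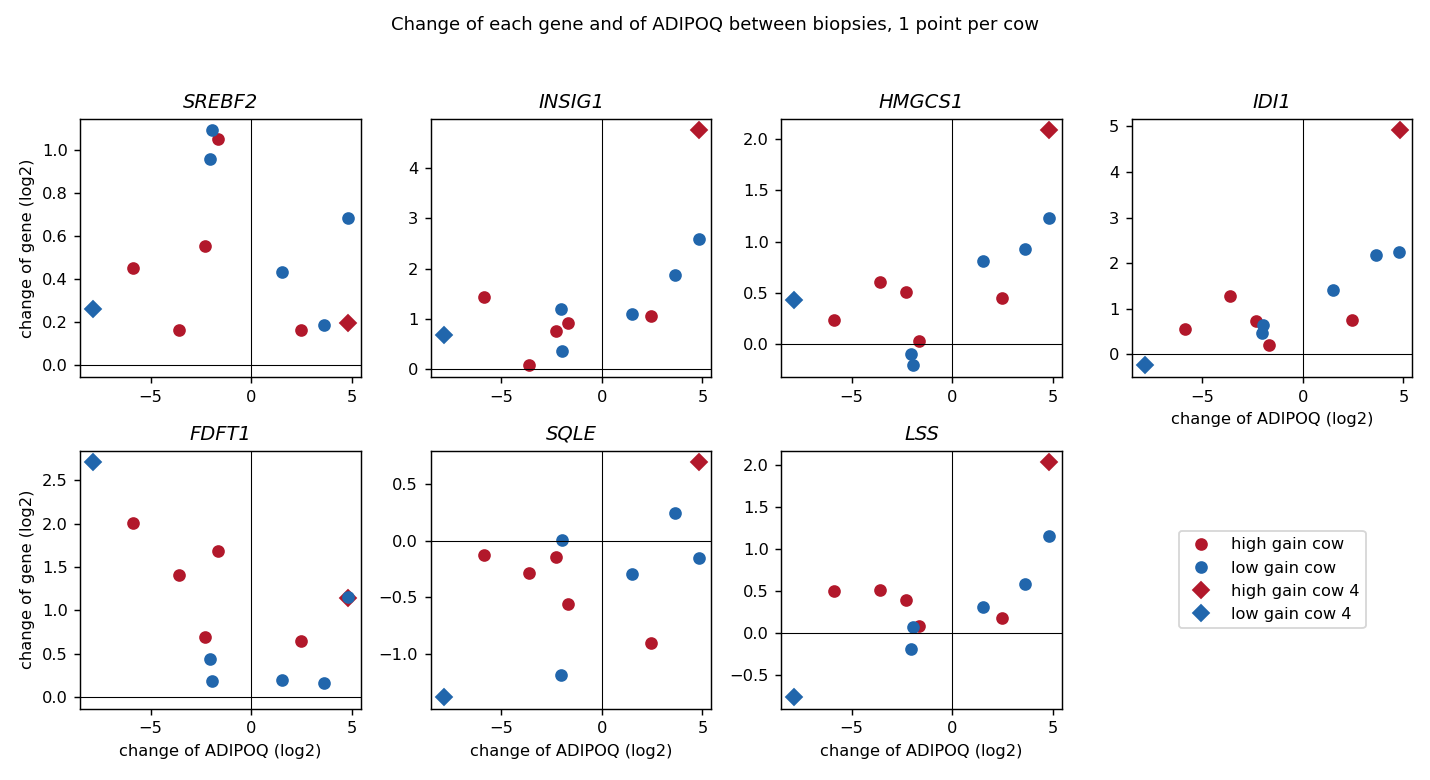
Change of each sterol gene (vertical axis, log2) against the change of ADIPOQ (horizontal axis, log2) between biopsies, with 1 point per cow, red for high gain and blue for low gain, and diamonds for cow 4 of each class. INSIG1, SREBF2 and FDFT1 lie above 0 for all 12 cows, those with a falling ADIPOQ level included, and high gain cow 4 is the highest point for INSIG1, HMGCS1, IDI1, SQLE and LSS.

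The 7 genes did not vary as 1 block. Over the 24 arrays, as deviations from group means, INSIG1 correlated with the mean of the other 6 at a Pearson r of 0.892, LSS at 0.869, HMGCS1 at 0.859, IDI1 at 0.858 and SQLE at 0.725. FDFT1 stood at -0.056 and SREBF2 at -0.315. These are descriptions, and the points share the cows, the arrays and their normalization. In the 20 arrays without both cows numbered 4 LSS kept 0.864, INSIG1, HMGCS1 and IDI1 lay between 0.594 and 0.650, SQLE was at 0.286, FDFT1 at 0.276 and SREBF2 at -0.499. Among pairs of genes, INSIG1 and IDI1 reached 0.892 with all arrays and 0.643 without these cows.

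Genes outside the 7 were ranked by Pearson r with the mean of the 7 over the 24 arrays. Symbols beginning with LOC or MGC, containing orf or being only an accession were passed over. The highest were TDH at 0.953, CIDEA at 0.947, ABHD11 at 0.942, PRR5L at 0.937 and SLC25A17 at 0.935. TDH encodes a threonine dehydrogenase, CIDEA a lipid droplet protein that is also among the adipocyte markers, and SLC25A17 a peroxisomal carrier. Without both cows numbered 4 the 5 correlations were 0.781, 0.824, 0.806, 0.704 and 0.832, at ranks 13, 4, 9, 61 and 3 among all tested genes. ADIPOQ stood at 0.701 with all arrays and at 0.474 without these cows.

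The rest of the sterol pathway was read from 6 lists of 44 genes, the 8 genes above included. The lists too were written with earlier results of these data known, so shares of them are descriptions. Of the 36 other genes 28 had a feature of their own and 26 were tested. Of these 26, 9 rose between the biopsies and none fell, with a median change of 0.31, beside 20.8% of all tested genes called higher.

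Among the other 4 tested regulators SCAP, the escort of SREBP, rose by 0.88 ± 0.12 (SE, n = 12 cows, limma's adjusted p = 0.000166), and the site 1 protease gene MBTPS1 at -0.17 ± 0.10 was not called. Of 4 other mevalonate genes 1 rose, the mevalonate kinase gene MVK, by 0.40 ± 0.09. Between lanosterol and cholesterol 3 of 8 rose: EBP, the sterol isomerase, by 0.78 ± 0.16, the methyl oxidase gene MSMO1 by 0.56 ± 0.13 and the ketoreductase gene HSD17B7 by 0.39 ± 0.13. DHCR7, a late reductase of the pathway, was at 0.02 ± 0.10. So the genes called did not form an unbroken run of steps. With dim genes kept in the fit, TM7SF2, a sterol reductase, rose by 0.33 ± 0.09 (limma's adjusted p = 0.0100), and the phosphomevalonate kinase gene PMVK was at -0.06 ± 0.07.

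Of 3 genes of uptake and transport, the lysosomal cholesterol exporters NPC1 and NPC2 rose by 0.72 ± 0.24 and 0.96 ± 0.28. Of 7 genes of export, storage and the oxysterol receptors LXR, the receptor genes NR1H3 and NR1H2 rose by 0.74 ± 0.07 and 0.47 ± 0.09 (SE, n = 12 cows, limma's adjusted p = 9.92e-06 and 0.00155). The LXR target ABCA1, which exports cholesterol, was at -0.42 ± 0.19 and MYLIP, a ubiquitin ligase, at -0.82 ± 0.33, and neither was called.

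**Figure D4:**
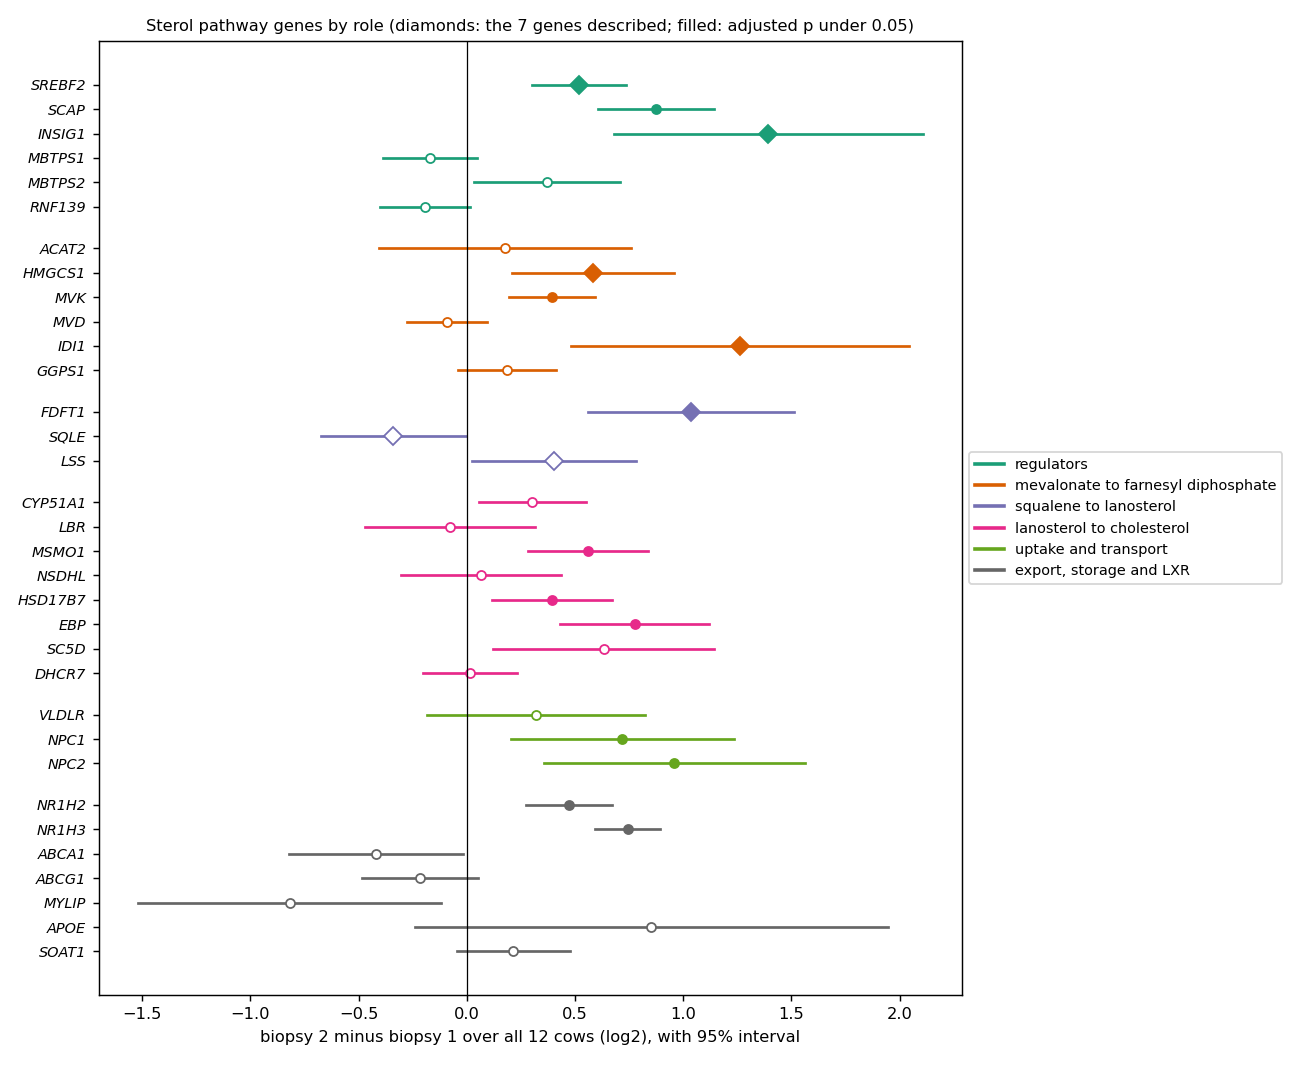
Change between biopsies over all 12 cows (horizontal axis, log2, biopsy 2 minus biopsy 1) of the 33 tested sterol pathway genes, ordered and coloured by role. Bars are 95% intervals, diamonds mark the 7 genes described first, and filled symbols passed limma's adjusted p of 0.05. All 14 filled symbols lie to the right of 0, and SQLE lies to the left.

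After the ADIPOQ adjustment 13 of the 26 other genes were called higher and 2 lower, beside 24.3% and 20.3% of all tested genes. APOE, an apolipoprotein, rose by 1.15 ± 0.20, the desaturase gene SC5D by 0.73 ± 0.18, the demethylase gene CYP51A1 by 0.33 ± 0.11 and the site 2 protease gene MBTPS2 by 0.30 ± 0.11, none of which was called before the adjustment over all 12 cows. ABCA1 fell by 0.49 ± 0.15 and MYLIP fell by 0.64 ± 0.17 (SE, n = 12 cows, limma's adjusted p = 0.0142 and 0.00822). Without both cows numbered 4 the adjusted fit called 11 of the 26 higher and 2 lower, and CYP51A1 and MBTPS2 were not called (limma's adjusted p = 0.0579 and 0.102). That fit called 43.6% of all 14197 genes, 3355 of them higher. In the unadjusted fit without both cows 9 of the 26 were called higher, SC5D among them at 0.55 ± 0.16. MYLIP was called lower there, at -0.62 ± 0.18. This unadjusted fit called 42.5% of all 14198 genes, 3265 of them higher.

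ABCA1 had unlike values in the classes. In low gain cows it fell by 1.10 ± 0.26 (SE, n = 6 cows, limma's adjusted p = 0.0118), and in high gain cows it was at 0.26 ± 0.26. The difference of these changes was 1.35 ± 0.37 with an unadjusted p of 0.00298, and limma's adjusted p was 1.00, so the classes are not shown to differ.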

How the data were processed

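Per the labels' protocols, TriPure Reagent served to extract RNA, and cRNA labelled with biotin was hybridised. The authors deposited log2 values (the base is taken from their range) made with Affymetrix Expression Console and Transcriptome Analysis Console, per the submitters' processing notes. Neither tool versions nor the normalization are stated in the sources used here. Of 26773 features 18790 had 1 gene in the platform annotation, 385 several and 7598 none. Each gene was read from its brightest feature, and genes averaging below the lower quartile of all features (6.76) were not tested.

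The members and gene lists were chosen with earlier results of these data known. Named were all members, the tested pathway genes called before or after adjustment, 4 tissue markers and the 5 other genes most like the members' mean, with the symbols described above passed over. Other genes were named after their values were seen. Changes between biopsies were fitted with limma 3.58.1 in R 4.3.3 (trend, cow as a fixed block, both classes in 1 fit, averaged with equal weight), with ADIPOQ added for the adjusted values. Levels and changes are from quantile normalized values, gain comparisons from the values as deposited. The block rests on the animal numbers in the titles: a cow's arrays correlated at -0.202 to 0.348 (median 0.157, different cows 0.0266), over 0.1 in 7 of 12 cows. The functions were tested on simulated data. Alternatives covered normalization, filter, features, moderation, array weights, block, covariate and leaving out each cow. No sequences or coordinates are given.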

Additional observations from a re-analysis of the deposited data

Results flagged for a closer look

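Of 28 groups of 6 arrays, 7 genes in 4 groups, 9 held an array far from its nearest neighbour by Dixon's criterion, where chance flags about 1 in 20 groups. The 7 genes share the arrays, so these are not independent events. On the biopsy 2 array of high gain cow 4 INSIG1 read 13.59, IDI1 14.79, HMGCS1 10.97, SQLE 8.44 and LSS 9.31, each the highest of its group, and ADIPOQ was 18.37 on the same array. On the biopsy 1 array of low gain cow 4 FDFT1 read 10.06, the lowest of its group, and LSS 8.15, the highest, and the mean of 9 muscle markers was 15.4. INSIG1 read 9.92 on the biopsy 1 array of high gain cow 2, the highest of its group. FDFT1 read 13.44 on the biopsy 2 array of low gain cow 2, the highest of its group. Whether tissue composition accounts for these arrays was not tested.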

How the results depend on the processing

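Over all cows the 5 rises kept their direction and their call under all 22 alternatives run, and the 6 adjusted rises did so under all 26. With no replicate block, the pairing of a cow's arrays ignored, SREBF2 stayed at 0.52 and INSIG1 at 1.39, and 5 genes were called, as with the block. Without the block HMGCS1 lost its adjusted call in low gain cows (0.55, limma's adjusted p = 0.101) and SQLE gained a call on ADIPOQ (0.091, limma's adjusted p = 0.00895), and no other call changed. Leaving out each cow in turn gave 5 to 6 called of 7 over all cows, and 6 to 7 after adjustment. The shares of all tested genes called in those fits are not given here.

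Class counts moved more. In high gain cows (3 called) the deposited values gave 5, and leaving out single cows 0 to 3. In low gain cows (1 called) the deposited values, array weights and leaving out both cows numbered 4 each gave 3, and single cows 1 to 3. In low gain cows after adjustment (5 called) array weights gave 3, leaving out both cows 3, ADIPOQ and CKM together 2, and single cows 1 to 6. In high gain cows after adjustment (6 called) leaving out both cows gave 4 and single cows 4 to 6. The association with ADIPOQ (4 called) gave 0 without both cows and 1 with CKM, and 2 to 5 over single cows. The cause was not tested.

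Signs changed among values that were called under none of these settings. For the difference of changes, array weights gave -0.19 for INSIG1, -0.070 for HMGCS1, -0.37 for IDI1 and -0.022 for SQLE, and leaving out both cows gave -0.58, -0.17, -0.69 and -0.13 for these and -0.054 for LSS. Single cows left out moved it from -0.45 to 0.48 for INSIG1, from -0.15 to 0.28 for HMGCS1 and from -0.41 to 0.53 for IDI1. The adjusted SQLE change in high gain cows ran from -0.27 to 0.094 over single cows.

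For gain at biopsy 1, quantile normalization gave 0.010 for HMGCS1, and single cows left out gave -0.094 to 0.076 for HMGCS1 and -0.016 to 0.11 for SREBF2. For gain at biopsy 2, array weights gave -0.058 for HMGCS1, -0.38 for IDI1, -0.10 for SQLE and -0.17 for LSS, and leaving out both cows -0.32, -0.76, -0.28 and -0.35. Single cows left out gave -0.67 to 0.20 for INSIG1, -0.20 to 0.31 for HMGCS1, -0.66 to 0.40 for IDI1, -0.16 to 0.052 for FDFT1, -0.20 to 0.16 for SQLE and -0.32 to 0.21 for LSS. For gain over both biopsies, array weights gave 0.0024 for SREBF2 and -0.11 for HMGCS1, leaving out both cows -0.23 for HMGCS1, and single cows -0.43 to 0.040 for INSIG1, -0.14 to 0.17 for HMGCS1 and -0.42 to 0.17 for IDI1.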
